A study of Homo sapiens with 6 samples.

Results

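The genes described here encode the contractile actin filament of smooth muscle and its closest relatives in other cells: the smooth muscle actins ACTA2 and ACTG2, the actin-binding proteins TAGLN, CNN1, CNN2 and CNN3, the tropomyosins TPM1, TPM2 and TPM4, and the myosin regulatory light chain MYL9. They were chosen by symbol, with earlier results of these data known, and all 10 were found among the 24580 rows of the table. RNA sequencing was used to measure messenger RNA in LoVo, a human colorectal adenocarcinoma line labelled wild type, and in LoVo-HM, labelled as a subline of it with high metastatic ability. Each line had 3 libraries, and the labels give no treatment for either. How LoVo-HM was obtained, and whether the libraries came from separate cultures, is not given in the sources used here, so the p-values measure only the spread between these libraries.

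In muscle and in the stress fibres of other cells, force comes from myosin II pulling on actin filaments. Tropomyosins are coiled-coil dimers that lie along the filament and govern which myosins and other proteins can bind it, calponins and transgelin bind and bundle the filament, and phosphorylation of the regulatory light chain switches myosin on. ACTA2, ACTG2, TAGLN, CNN1 and MYL9 are best known as smooth muscle and myofibroblast genes, which in colorectal tumours are expressed mainly by the stroma, whereas CNN2, CNN3, TPM1 and TPM4 are widely expressed. Serum response factor (SRF) drives many of these genes through a promoter element called the CArG box, together with the coactivators myocardin and MRTF.

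The smooth muscle genes and the widely expressed genes stood at very different levels. ACTG2, CNN1 and MYL9 did not exceed 0.0996 FPKM (fragments mapped to a gene per kilobase of its transcript and relative to the mapped fragments in the library) in any library of either line, and they were too low to test. Of the 7 members that were tested, TPM4, TPM1, CNN3, TPM2 and TAGLN rose in LoVo-HM, ACTA2 fell, and CNN2 did not pass the test. TPM4 showed the largest difference among the 7, with a mean 3.25 times that of LoVo. The 5 rises and 1 fall are read against a background in which 21.8% of the 14487 tested genes were called higher and 23.1% lower, 44.9% in all. The median log2 difference was 0.66 over the 7 tested members and 0.003 over all genes tested. As the members were chosen with earlier results known, these figures do not describe an unselected list. Of related genes outside the list, TPM3, ACTB, ACTG1 and MYL12A did not pass the test as fitted, and TAGLN2 and MYL12B fell. Log2 differences are given as LoVo-HM minus LoVo with their SE, computed on log2(FPKM + 1), so that changes of low genes come out too small. The limma p-values were adjusted over all 14487 genes by the Benjamini-Hochberg method.

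The promoter sequences of the members were searched for exact matches to the CArG box in the window that RefSeq gives (GRCh38.p14, from 250 bases before to 50 after each annotated start). The motif is a CC pair, 6 bases that are each A or T, and a GG pair, and it reads as the same motif on both strands. Of the 10 members, 8 had an entry, with 13 windows between them. The motif was in 3 of these 13 windows, 1 each in ACTG2, CNN2 and TPM4. It was present in 454 of all 35116 windows (1.29%). The stretches of 30 bases around each match are shown 5′ to 3′ on the gene's strand, with the CArG box in capitals.
ACTG2, chr2:73892888-73892917, plus strand: gaaaaaaccaCCTTATATGGtaatattgct
ACTG2, chr2:73892925-73892954, plus strand: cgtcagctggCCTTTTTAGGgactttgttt
CNN2, chr19:1026509-1026538, plus strand: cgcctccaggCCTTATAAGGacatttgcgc
TPM4, chr19:16067355-16067384, plus strand: aatcctaggtCCAAATAAGGcgagggctgc
In ACTG2 the motifs began 110 and 73 bases before the start, in CNN2 89 bases before it, and in TPM4 173 bases before 1 of its 3 listed starts. These 3 genes had very different measurements: ACTG2 was near 0 in both lines, CNN2 was abundant in both without passing the test, and TPM4 rose. The windows listed for ACTA2, CNN1, CNN3, TPM1 and TPM2 held no exact match. An element that differs from the motif by a base, or lies outside the windows, would be missed. The search therefore cannot show that these genes lack SRF sites. A match describes the sequence only, and binding was not measured.

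**Figure D1:**
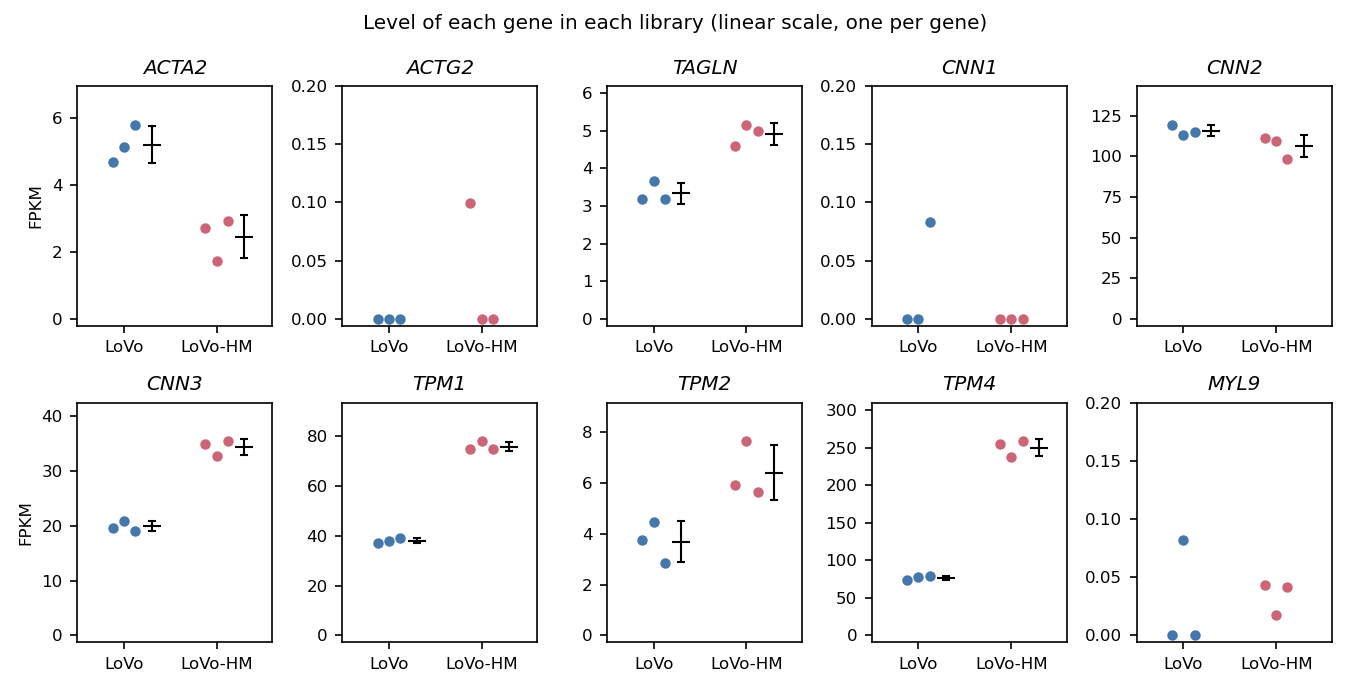
FPKM of each of the 10 genes in each library (points, vertical axis, linear and scaled per gene) for LoVo and LoVo-HM, with mean ± SD as a bar for the genes that were tested. TPM4, TPM1, CNN3, TPM2 and TAGLN sit higher in all 3 LoVo-HM libraries, and ACTA2 sits lower. CNN2 also sits lower in all 3 but did not pass the test. Groups did not overlap for 55% of all genes tested. ACTG2, CNN1 and MYL9 lie at or below 0.0996 FPKM.

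Of the smooth muscle actins, ACTA2, which encodes alpha smooth muscle actin (ENSG00000107796, GRCh38, chromosome 10, 88935074 to 88991339, minus strand), was low in both lines. It stood at 4.69, 5.15 and 5.81 FPKM in the LoVo libraries and at 2.73, 1.72 and 2.92 FPKM in the LoVo-HM libraries. Every LoVo-HM library lay below every LoVo library, and 55% of all genes tested also had groups that did not overlap. In such bulk RNA, fewer cells with the transcript and less of it per cell cannot be told apart. ACTA2 fell, averaging 5.22 ± 0.564 in LoVo and 2.46 ± 0.643 FPKM in LoVo-HM (SD, n = 3 each; log2 difference -0.86 ± 0.144, limma adjusted p = 0.00141). At a pseudocount of 0.1 the log2 difference was -1.08. A gene on the opposite strand, FAS, which encodes a death receptor, shares 380 exonic bases with ACTA2, 12.8% of those annotated for it. FAS also fell and averaged 11.1 ± 0.679 in LoVo and 6.46 ± 0.480 FPKM in LoVo-HM (log2 difference -0.69 ± 0.076, limma adjusted p = 0.000121). The strand setting of the counting is not given in the sources used here, so reads from the shared bases cannot be assigned, and the part of FAS in the ACTA2 value was not tested. By annotation the antisense gene ACTA2-AS1 shares 516 exonic bases with ACTA2. Whether they include bases shared with FAS was not examined, and ACTA2-AS1 was not analysed here.

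ACTG2, which encodes gamma smooth muscle actin (ENSG00000163017, chromosome 2, 73892314 to 73919865, plus strand), was listed at 0 in 5 libraries and at 0.0996 FPKM in LoVo-HM replicate 1. Nearly all actin transcripts in both lines came from the cytoplasmic actins ACTB and ACTG1, which build the cortex and stress fibres of nonmuscle cells and held 42.8% and 57.0% of actin FPKM in LoVo. ACTA2 made up 0.173% ± 0.0249 of the summed FPKM of 6 actin genes in LoVo and 0.0747% ± 0.0170 in LoVo-HM (SD, n = 3 each). The coding sequence of ACTA2 is identical to that of ACTB at 82.2% of aligned bases and to that of ACTG1 at 82.3%. How the counting split reads between these genes is not given, so the ACTA2 value is uncertain, and the part of shared reads was not tested. ACTB stood at 1294 ± 39.5 in LoVo and 1451 ± 155 FPKM in LoVo-HM (log2 difference 0.16 ± 0.069, limma adjusted p = 0.0886). ACTG1 stood at 1722 ± 68.2 and 1817 ± 62.4 FPKM (log2 difference 0.08 ± 0.042, limma adjusted p = 0.163). Neither passed the test as fitted, and the direction depended on the scaling. With each library at the same total both were called higher (limma adjusted p = 0.0437 and 0.0467), and under quantile normalization ACTB turned to -0.01 (0.913) and ACTG1 to -0.08, called lower (0.00628).

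Transgelin and the calponins split between low and abundant genes. TAGLN, an actin-bundling protein of smooth muscle (ENSG00000149591, chromosome 11, 117199321 to 117204782, plus strand), stood at 3.18, 3.66 and 3.18 in LoVo and at 4.58, 5.15 and 4.98 FPKM in LoVo-HM. The groups did not overlap, as was also true of 55% of all genes tested. TAGLN rose, averaging 3.34 ± 0.277 in LoVo and 4.91 ± 0.292 FPKM in LoVo-HM (SD, n = 3 each; log2 difference 0.45 ± 0.084, limma adjusted p = 0.00266). PCSK7, a protease gene on the opposite strand that shares 446 exonic bases with TAGLN, did not pass the test, at 9.74 ± 0.0983 in LoVo and 8.41 ± 0.829 FPKM in LoVo-HM (log2 difference -0.19 ± 0.077, limma adjusted p = 0.0704). The shared bases are 11.4% of those annotated for TAGLN. As the strand setting is not given, reads from them cannot be assigned. The part of PCSK7 in the TAGLN value was not tested. The paralog TAGLN2, which is widely expressed in epithelia, fell, averaging 201 ± 9.31 in LoVo and 131 ± 8.51 FPKM in LoVo-HM (log2 difference -0.62 ± 0.057, limma adjusted p = 4.19e-05). TAGLN was a small share of transgelin transcripts, 1.64% ± 0.134 in LoVo and 3.63% ± 0.393 in LoVo-HM.

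CNN1, the calponin of differentiated smooth muscle (ENSG00000130176, chromosome 19, 11538717 to 11550323, plus strand), was listed at 0 in 5 libraries and at 0.0831 FPKM in LoVo replicate 3. CNN2, a calponin found in many cell types including epithelia (ENSG00000064666, chromosome 19, 1026581 to 1039068, plus strand), was the most abundant of the 10 genes in LoVo. Its libraries stood at 119, 113 and 115 in LoVo and at 111, 109 and 98.6 FPKM in LoVo-HM. The groups did not overlap, as for 55% of all genes tested, but the gap between the nearest libraries was small. CNN2 had means of 116 ± 3.20 and 106 ± 6.85 FPKM (log2 difference -0.12 ± 0.054, 95% interval without adjustment -0.247 to -0.00062, limma adjusted p = 0.0938). A gene on the opposite strand, AC011558.1, shares 338 exonic bases with CNN2 and was not analysed here.

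CNN3, the acidic calponin, known from nonmuscle cells and brain (ENSG00000117519, chromosome 1, 94896949 to 94927278, minus strand), stood at 19.6, 20.9 and 19.1 in LoVo and at 34.9, 32.7 and 35.4 FPKM in LoVo-HM. All 3 LoVo-HM libraries were higher, and such a lack of overlap was seen for 55% of all genes tested. CNN3 rose, averaging 19.9 ± 0.941 in LoVo and 34.3 ± 1.41 FPKM in LoVo-HM (SD, n = 3 each; log2 difference 0.76 ± 0.057, limma adjusted p = 1.14e-05). The summed calponin level was 136 ± 2.88 in LoVo and 141 ± 6.23 FPKM in LoVo-HM, with overlapping libraries. Its makeup differed: CNN3 held 14.6% ± 0.811 of calponin FPKM in LoVo and 24.4% ± 1.76 in LoVo-HM, and CNN2 held nearly all of the rest.

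Each of the 3 tropomyosin members rose in LoVo-HM, where 21.8% of all tested genes were called higher. The other tropomyosin gene, TPM3, is given below and did not pass the test. TPM4, a tropomyosin of nonmuscle cells (ENSG00000167460, chromosome 19, 16067021 to 16103005, plus strand), stood at 74.1, 77.2 and 79.4 in LoVo and at 255, 237 and 258 FPKM in LoVo-HM. The lowest LoVo-HM library was far above the highest LoVo library, and 55% of all genes tested had groups without overlap. TPM4 rose, averaging 76.9 ± 2.66 in LoVo and 250 ± 11.3 FPKM in LoVo-HM (SD, n = 3 each; log2 difference 1.69 ± 0.048, limma adjusted p = 2.16e-08). Of the 7 tested members it alone changed at least 2-fold on this scale, where 2.37% of tested genes did so upward and 4.18% downward. In plain FPKM the ACTA2 mean in LoVo-HM was 0.471 times that in LoVo. ACTA2 and TPM1 each reached 2-fold on the log2 scale under 1 of 16 alternative settings. Among all tested genes TPM4 moved from rank 722 by mean level in LoVo to rank 166 in LoVo-HM, and its upward log2 difference had rank 135.

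TPM1, which is alternatively spliced into muscle and nonmuscle forms (ENSG00000140416, chromosome 15, 63042632 to 63071915, plus strand), stood at 37.2, 38.0 and 38.9 in LoVo and at 74.8, 77.8 and 74.6 FPKM in LoVo-HM. The libraries of each line lay close together and far from those of the other, and 55% of all genes tested had groups without overlap. TPM1 rose, averaging 38.0 ± 0.870 in LoVo and 75.7 ± 1.81 FPKM in LoVo-HM (SD, n = 3 each; log2 difference 0.98 ± 0.044, limma adjusted p = 4.1e-07). Its mean in LoVo-HM was 1.99 times that in LoVo.

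TPM2, the beta tropomyosin prominent in muscle (ENSG00000198467, chromosome 9, 35681992 to 35690121, minus strand), was far lower and more variable. It stood at 3.76, 4.47 and 2.85 in LoVo and at 5.91, 7.64 and 5.66 FPKM in LoVo-HM. The groups did not overlap, as for 55% of all genes tested. TPM2 rose, averaging 3.69 ± 0.810 in LoVo and 6.40 ± 1.08 FPKM in LoVo-HM (SD, n = 3 each; log2 difference 0.66 ± 0.146, limma adjusted p = 0.00605).

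The remaining tropomyosin gene, TPM3, which gives a cytoskeletal tropomyosin in nonmuscle cells, did not pass the test, at 97.3 ± 1.87 in LoVo and 103 ± 2.77 FPKM in LoVo-HM (log2 difference 0.07 ± 0.041, 95% interval -0.0182 to 0.168, limma adjusted p = 0.169). Over the 4 tropomyosin genes the summed level was 216 ± 4.85 in LoVo and 435 ± 10.8 FPKM in LoVo-HM, 2.01 times as high. The leading gene differed between the lines. TPM3 held 45.1% ± 0.381 of tropomyosin FPKM in LoVo and 23.6% ± 0.296 in LoVo-HM, while TPM4 held 35.6% ± 0.585 and 57.5% ± 1.22. TPM1 held 17.6% ± 0.211 and 17.4% ± 0.862, which overlapped, and TPM2 held 1.71% ± 0.376 and 1.48% ± 0.289. For TPM3 and TPM4 these shares did not overlap between the lines, and a share within a library does not change when all genes of that library are scaled by 1 factor. Quantile normalization, which is not of that kind, put the TPM4 share at 35.8% in LoVo and 57.2% in LoVo-HM.

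**Figure D2:**
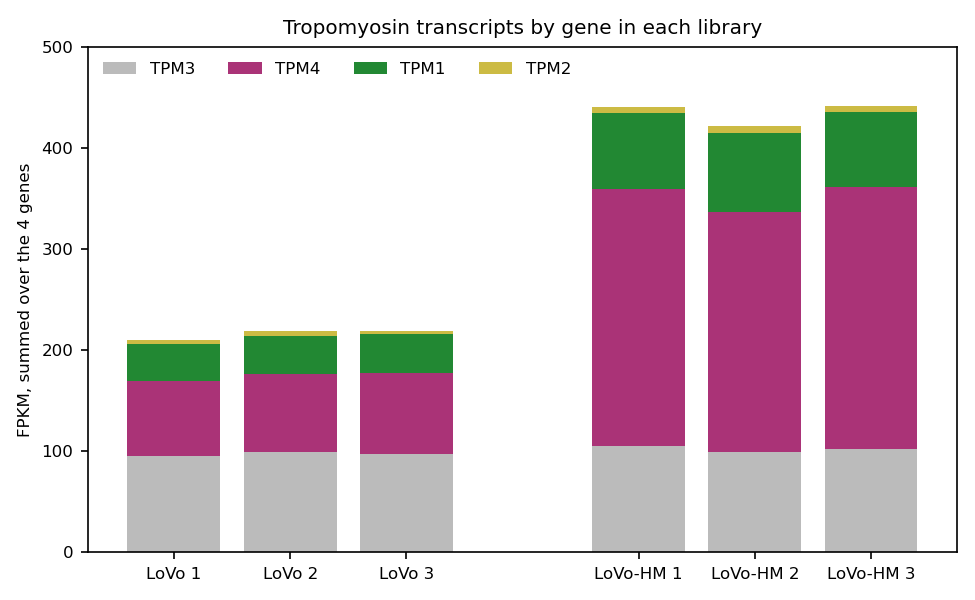
FPKM of the 4 tropomyosin genes stacked in each library, with LoVo replicates on the left and LoVo-HM replicates on the right. The LoVo bars reach 210 to 219 FPKM and the LoVo-HM bars 422 to 441 FPKM, and the TPM4 segment accounts for most of the added height.

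Set against actin, tropomyosin transcripts were also more abundant in LoVo-HM. Summed tropomyosin FPKM was 6.73, 7.23 and 7.52% of summed actin FPKM in the LoVo libraries. It was 13.9, 13.5 and 12.5% in the LoVo-HM libraries, so the groups did not overlap. The values are sums over all transcripts of a gene. GENCODE 29 annotates 19 coding transcripts of TPM1, 14 of TPM4 and 8 of TPM2, and which of them, muscle or nonmuscle, were expressed was not resolved. By annotation, genes on the opposite strand share 2070 (TPM1-AS) and 691 (AC079328.2) exonic bases with TPM1 and 829 with TPM4 (AC008894.3, of the annotation's class TEC), and they were not analysed here. The coding sequences of the 4 tropomyosin genes are identical at 75.1 to 80.2% of aligned bases.

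MYL9, the regulatory light chain of smooth muscle and nonmuscle myosin II (ENSG00000101335, chromosome 20, 36541484 to 36551447, plus strand), was listed at 0, 0.0818 and 0 in LoVo and at 0.0434, 0.0172 and 0.0412 FPKM in LoVo-HM. Its paralogs MYL12A and MYL12B, which encode nonmuscle regulatory light chains, supplied nearly all of this class of transcript in both lines. MYL12B fell, averaging 133 ± 0.694 in LoVo and 99.2 ± 3.50 FPKM in LoVo-HM (log2 difference -0.42 ± 0.041, limma adjusted p = 5.58e-05). MYL12A stood at 75.7 ± 4.74 and 70.0 ± 5.36 FPKM and did not pass the test (log2 difference -0.11 ± 0.068, limma adjusted p = 0.216). These paralogs are identical at 95.7% of aligned coding bases, so the split between them is uncertain, but their sum with MYL9 was also lower in LoVo-HM, at 209 ± 4.57 in LoVo and 169 ± 8.80 FPKM in LoVo-HM.

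**Figure D3:**
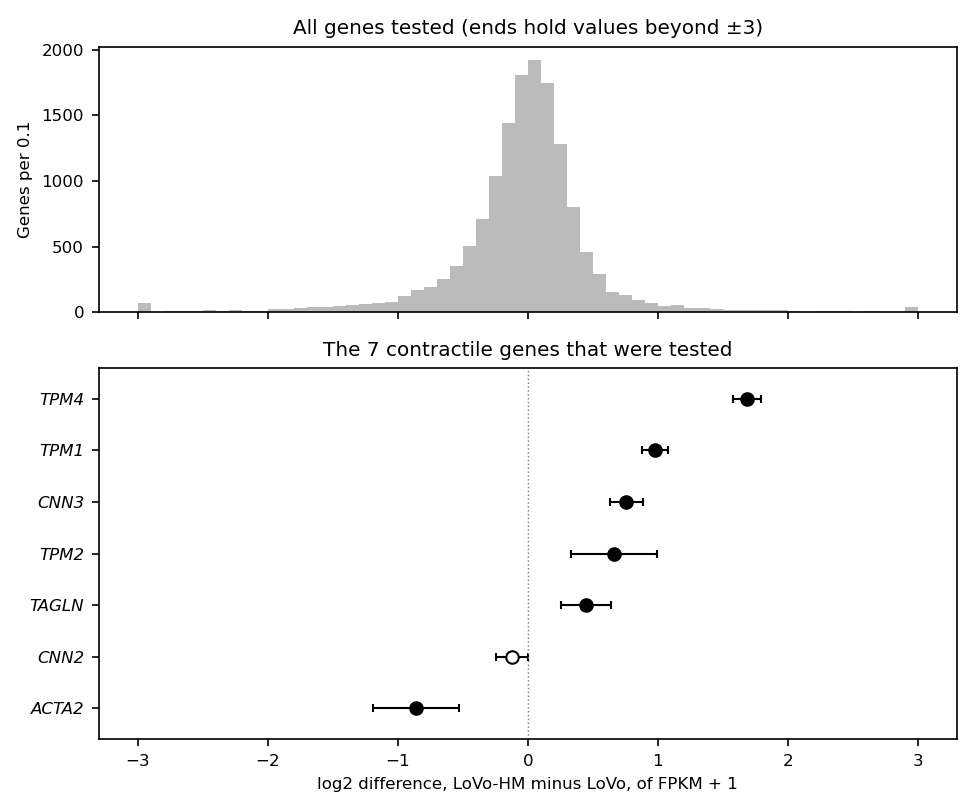
Top, number of genes per 0.1 log2 units over all 14487 tested genes; bottom, log2 difference of FPKM + 1 (LoVo-HM minus LoVo) of the 7 tested members with 95% intervals, filled where the limma adjusted p was under 0.05. TPM4 lies at 1.69 and TPM1 at 0.98, ACTA2 lies at -0.86 and CNN2, the open point, at -0.12.

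The rest of the contractile apparatus was described by lists of genes, read from the same fit over all genes. In that fit 21.8% of all tested genes were called higher and 23.1% lower. Among 13 myosin II chain genes 7 were tested, of which 1 rose, 2 fell and 4 did not pass (median -0.06). The nonmuscle heavy chain MYH10 rose, averaging 19.0 ± 0.422 in LoVo and 25.4 ± 0.634 FPKM in LoVo-HM (log2 difference 0.40 ± 0.050, limma adjusted p = 0.000258). The more abundant nonmuscle heavy chain MYH9 stood at 158 ± 2.21 and 151 ± 5.82 FPKM (log2 difference -0.06 ± 0.041, limma adjusted p = 0.244). MYH14, a nonmuscle heavy chain of epithelia, fell, averaging 9.21 ± 0.924 in LoVo and 6.98 ± 0.571 FPKM in LoVo-HM (log2 difference -0.35 ± 0.089, limma adjusted p = 0.0115). The essential light chain MYL6 missed the threshold (log2 difference 0.17 ± 0.064, limma adjusted p = 0.0554). It passed without LoVo replicate 1 (limma adjusted p = 0.0255), without LoVo-HM replicate 1 (0.0490) and with each library at the same total (0.0261). The smooth muscle heavy chain MYH11 was at 0.220 and 0.218 FPKM on average and was not tested.

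Among the 21 genes that act on phosphorylation of the light chain, 19 were tested, 9 rose, 1 fell and 9 did not pass (median 0.18). The shares over all tested genes were 21.8% higher and 23.1% lower. RHOB, a small GTPase, rose, averaging 17.4 ± 0.447 in LoVo and 26.8 ± 0.239 FPKM in LoVo-HM (log2 difference 0.60 ± 0.049, limma adjusted p = 2.05e-05). ROCK2, a kinase that inhibits myosin light chain phosphatase, rose, averaging 8.73 ± 0.248 in LoVo and 12.9 ± 1.02 FPKM in LoVo-HM (log2 difference 0.52 ± 0.070, limma adjusted p = 0.000437), and so did the guanine nucleotide exchange factor ARHGEF12, which averaged 28.0 ± 0.809 in LoVo and 40.3 ± 1.98 FPKM in LoVo-HM (log2 difference 0.51 ± 0.053). PPP1R14C, an inhibitor of protein phosphatase, was the member that fell, with averages of 8.50 ± 0.424 in LoVo and 5.46 ± 0.243 FPKM in LoVo-HM (log2 difference -0.56 ± 0.070, limma adjusted p = 0.000272). No tested gene of this list changed 2-fold.

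Of the 9 genes for SRF and its cofactors 8 were tested, 4 rose and 4 did not pass (median 0.14). The share called higher was 21.8% over all tested genes. SRF itself stood at 18.4 ± 0.555 in LoVo and 18.6 ± 1.37 FPKM in LoVo-HM (log2 difference 0.01 ± 0.065, 95% interval -0.134 to 0.162, limma adjusted p = 0.877). The coactivator MRTFA rose, averaging 5.83 ± 0.284 in LoVo and 7.02 ± 0.210 FPKM in LoVo-HM (log2 difference 0.23 ± 0.069, limma adjusted p = 0.0239), a call lost without LoVo replicate 1 (0.0784), LoVo replicate 2 (0.0517), LoVo-HM replicate 1 (0.0699) or LoVo-HM replicate 3 (0.0635). Its relative MRTFB stood at 8.0 ± 0.214 and 8.35 ± 0.418 FPKM (limma adjusted p = 0.52). Myocardin, MYOCD, the coactivator of smooth muscle, was listed at 0 in all 6 libraries. The ternary complex factors ELK3 and ELK1, which bind DNA with SRF, rose by small amounts (log2 differences 0.32 ± 0.068 and 0.24 ± 0.062, limma adjusted p = 0.00482 and 0.014). The LIM protein FHL2 rose, averaging 14.0 ± 1.68 in LoVo and 17.9 ± 1.97 FPKM in LoVo-HM (log2 difference 0.34 ± 0.10, limma adjusted p = 0.0233). The call for ELK1 was lost without LoVo-HM replicate 1 (limma adjusted p = 0.0576), and the call for FHL2 without LoVo replicate 2 (0.0811), LoVo replicate 3 (0.0629) or LoVo-HM replicate 1 (0.0804) and without a filter on low values (0.0572). Without LoVo replicate 2 the list held 2 genes called higher, and without LoVo-HM replicate 1 it held 1.

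Proteins that bind the same filaments went both ways. Of 28 stress fibre and focal adhesion genes 24 were tested, 9 rose, 6 fell and 9 did not pass (median 0.13). Over all tested genes 21.8% were called higher and 23.1% lower. CALD1, which encodes caldesmon, a tropomyosin-associated protein that restrains myosin, rose, averaging 6.33 ± 0.245 in LoVo and 20.2 ± 0.829 FPKM in LoVo-HM (log2 difference 1.53 ± 0.062, limma adjusted p = 2.17e-07), 3.19 times as high. The LIM domain proteins TES and PDLIM1 fell (limma adjusted p = 1.01e-06 and 1.8e-06). TES averaged 41.5 ± 0.866 in LoVo and 21.3 ± 0.581 FPKM in LoVo-HM, and PDLIM1 averaged 114 ± 1.49 and 71.2 ± 0.951 FPKM. ACTN1, the crosslinker alpha-actinin, stood at 53.7 ± 2.64 and 49.8 ± 1.21 FPKM (limma adjusted p = 0.115). SMTN, smoothelin, stood at 30.3 ± 1.11 and 34.4 ± 2.83 FPKM (limma adjusted p = 0.0664) and passed without LoVo-HM replicate 3 (0.0115) and with each library at the same total (0.0363).

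Among 23 genes for filament ends and turnover 19 were tested, 3 rose, 7 fell and 9 did not pass (median -0.08). For comparison, 21.8% of all tested genes were called higher and 23.1% lower. TMSB4X, thymosin beta, which holds actin monomers, rose, averaging 171 ± 13.1 in LoVo and 630 ± 38.0 FPKM in LoVo-HM (log2 difference 1.87 ± 0.064, limma adjusted p = 7.14e-08). LIMK2, a kinase that inactivates cofilin, fell, averaging 46.8 ± 0.854 in LoVo and 16.4 ± 0.318 FPKM in LoVo-HM (log2 difference -1.46 ± 0.047, limma adjusted p = 4.77e-08). CFL2, the muscle cofilin, rose, averaging 4.28 ± 0.316 in LoVo and 8.86 ± 0.823 FPKM in LoVo-HM (log2 difference 0.90 ± 0.085), and the capping protein CAPG fell, averaging 33.6 ± 1.26 in LoVo and 24.5 ± 1.15 FPKM in LoVo-HM (log2 difference -0.44 ± 0.055). The 3 tropomodulin genes that were tested, which cap the tropomyosin-coated filament at its pointed end, stood lower in LoVo-HM, with TMOD2 (-0.51 ± 0.080, limma adjusted p = 0.000993) and TMOD3 (-0.29 ± 0.065, 0.00712) past the threshold and TMOD1 not (-0.21 ± 0.108, 0.142). The tropomodulins were named after their values were seen.

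**Figure D4:**
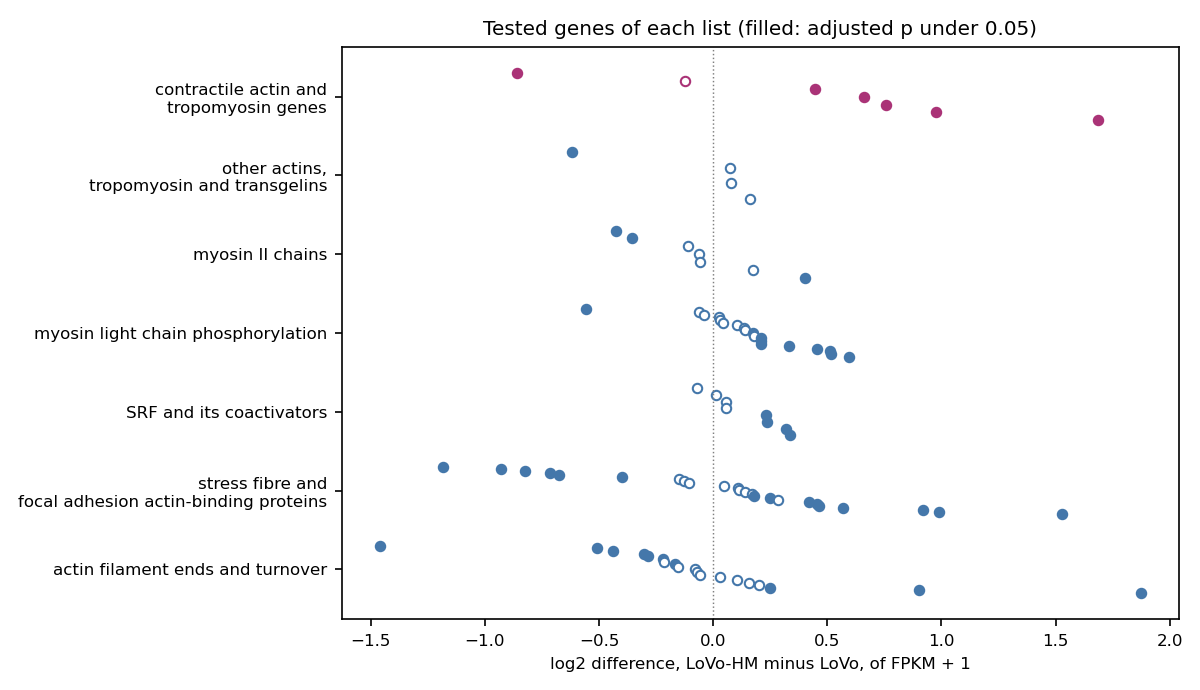
Log2 difference of FPKM + 1 (LoVo-HM minus LoVo, horizontal axis) of every tested gene of each list, 1 point a gene, filled where the limma adjusted p was under 0.05. The 7 contractile actin and tropomyosin members spread from -0.86 to 1.69, and each other list also holds genes on both sides of 0.

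Markers of cells other than the tumour cells were read beside these values. Calls among the markers are set beside the 21.8% of all tested genes called higher and the 23.1% called lower. Of 8 smooth muscle markers only MYLK and SMTN reached the level for testing. MYH11, LMOD1, DES, MYOCD, SYNM and SYNPO2 each had a mean of at most 0.251 FPKM in either line. Among these, SYNPO2 alone did not overlap and was lower in LoVo-HM (0.251 ± 0.0323 in LoVo and 0.0992 ± 0.0528 FPKM in LoVo-HM). The summed level of 9 fibroblast markers was 4.83 to 6.36 FPKM over the LoVo libraries and 4.92 to 5.75 FPKM over the LoVo-HM libraries, nearly all of it COL1A1, and COL1A2, FAP and POSTN were listed at 0 in all 6. Below the level for testing, LUM (0.0177 ± 0.0154 in LoVo and 0.284 ± 0.0621 FPKM in LoVo-HM), DCN (0.00994 ± 0.00863 and 0.0856 ± 0.00956 FPKM) and PDGFRA (0.00571 ± 0.00495 and 0.0398 ± 0.0265 FPKM) were each higher in every LoVo-HM library than in any LoVo library. Groups also did not overlap for 55% of the genes tested, but the share among genes below that level was not computed. THY1 averaged 0 in LoVo and 0.0467 ± 0.0688 FPKM in LoVo-HM, with overlap. PDGFRB (0.0354 ± 0.0223 and 0.0101 ± 0.0175 FPKM) and COL1A1 (5.62 ± 0.801 and 4.75 ± 0.436 FPKM, limma adjusted p = 0.161) averaged lower in LoVo-HM, also with overlap. Endothelial markers summed to at most 0.303 FPKM in any library. Among them CDH5 was at 0 in LoVo and averaged 0.0655 ± 0.0407 FPKM in LoVo-HM, without overlap. The 9 striated muscle markers were all too low to test. Of these, TNNT2 averaged 0.444 ± 0.0934 FPKM in LoVo and 0 in LoVo-HM. CKM (0.0586 ± 0.0513 and 0.180 ± 0.0798 FPKM) and NEB (0.104 ± 0.00914 and 0.181 ± 0.0403 FPKM) were higher in LoVo-HM. These 3 did not overlap. Of 5 leukocyte markers, PTPRC, the pan-leukocyte marker, was listed at 0 in all 6 libraries. CD3E, CD14 and CD79A were too low to test, with means of at most 0.126 FPKM in either line. CD68 was tested and fell, averaging 3.44 ± 0.0379 in LoVo and 2.55 ± 0.265 FPKM in LoVo-HM (log2 difference -0.32 ± 0.086, limma adjusted p = 0.015). Of 6 pericyte markers 5 were tested, 3 rose and 1 fell, and their summed level was 13.5 to 14.7 FPKM over the LoVo libraries and 28.3 to 30.6 FPKM over the LoVo-HM libraries. The pericyte genes that rose were KCNJ8 (0.924 ± 0.138 in LoVo and 9.12 ± 0.684 FPKM in LoVo-HM) and ABCC9 (0.0629 ± 0.0436 in LoVo and 3.66 ± 0.864 FPKM in LoVo-HM), which encode subunits of a potassium channel, and MCAM (5.25 ± 0.406 in LoVo and 11.7 ± 0.818 FPKM in LoVo-HM), while the defining marker RGS5 was at most 0.183 FPKM in any library and NOTCH3 fell (6.58 ± 0.534 in LoVo and 3.73 ± 0.348 FPKM in LoVo-HM). The part of these fibroblast and pericyte genes in the rise of TPM4, TPM1, TPM2, CNN3 and TAGLN was not tested. Of 8 colorectal epithelial markers 6 were tested, 4 rose and 2 fell. Those that fell were the adhesion genes CDH1, with a mean of 48.0 ± 1.38 in LoVo against 7.91 ± 0.359 FPKM in LoVo-HM (log2 difference -2.46 ± 0.055), and EPCAM, with 128 ± 1.99 against 51.7 ± 2.60 FPKM (-1.29 ± 0.048). Of the genes that rose, the keratin KRT19 had the largest log2 difference (1.88 ± 0.052), with 105 ± 6.81 against 389 ± 11.4 FPKM, and the others were KRT18, CDX2 and KRT8. These markers and those of the other cell types were named after their values were seen. VIL1 was listed at 0 in all 6 libraries and CDH17 at no more than 0.0361 FPKM.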

How the data were processed

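Per the labels' protocols, Trizol was used to extract RNA and a TruSeq kit to prepare the libraries, 3 each of LoVo and LoVo-HM. The authors deposited 1 table of FPKM values, and GRCh38 was the genome build per the submitters' processing notes. Not given in the sources used here are the aligner, the counter, the annotation, the strand setting and the depth. Library totals were 434108 to 439082 FPKM for LoVo and 424624 to 428265 FPKM for LoVo-HM. For 441 genes below 0.3 FPKM, ratios between 2 libraries were sorted into bins 0.05 log2 units wide; the fullest bin had 2.95% of them, so steps of 1 read could not be seen, the depth is unknown and no counting intervals are given.

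The deposited values were transformed to log2(FPKM + 1). The 14487 genes whose mean over the 6 libraries reached 0.5 FPKM were tested with limma 3.58.1 in R 4.3.3 (intensity trend, two-sided moderated tests, Benjamini-Hochberg adjustment, threshold 0.05). The fit was tested on simulated data. It recovered 4% of log2 changes of 0.25, 50% of 0.5, 92% of 1 and 98% of 2. Of its calls 3.94% were false. A gene that did not pass may therefore still have changed by a small amount. The simulation changed few genes, whereas 44.9% were called in the data, so its rates may differ from those here. No list was tested as a set. Gene positions and coding sequences (principal transcript) came from GENCODE 29, aligned with Biopython 1.88, and promoters from RefSeq. The text names all 10 members, up to 4 tested genes of each list (those of smallest p) and 15 further genes fixed by name. A gene that this rule would name is not reported here. The members and lists were chosen with earlier results of these data known. As alternatives, the pseudocount was set to 0.1 or 0.5, the filter removed or raised to 2 FPKM, the libraries scaled to the same total, by median ratio or by quantiles, the variance fitted without trend or robustly, the replicate number added as a block, or 1 library left out.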

Additional observations from a re-analysis of the deposited data

How the results depend on the processing

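The 5 rises and 1 fall among the members, and the lack of a call for CNN2, held under all 16 alternatives. Log2 differences ranged from 1.66 to 1.72 for TPM4, 0.96 to 1.01 for TPM1, 0.73 to 0.79 for CNN3, 0.53 to 0.79 for TPM2, 0.42 to 0.54 for TAGLN, -0.16 to -0.07 for CNN2 and -1.08 to -0.70 for ACTA2. With the replicate number as a block the members again gave 5 higher and 1 lower, and all genes 3131 higher and 3328 lower against 3161 and 3347 without it. Same-numbered libraries did not deviate together (correlations -0.007, 0.0215 and 0.0264), so the numbers were not taken to pair them. Counts in 3 lists moved by more than 1.5 times under an alternative. In the list of other actins, tropomyosin and transgelins the genes higher went from 0 to 1 without a filter and to 2 at the same total, and the genes lower from 1 to 2 under quantile normalization, where ACTB was at -0.0106 and ACTG1 at -0.0769. Myosin II chains higher went from 1 to 2 at the same total and were 1 to 2 when a library was left out. SRF and cofactors higher were 1 to 4 when a library was left out. SRF itself ranged from -0.036 (without LoVo-HM replicate 2) to 0.0647 when a library was left out, and was also below 0 without LoVo replicate 1 (-0.00915). Counts of the other 3 lists moved by at most 1.5 times: higher genes were 6 to 11 for light chain phosphorylation (9 as reported), 7 to 11 for stress fibres (9) and 2 to 4 for filament turnover (3), and lower genes were 1 throughout, 6 to 7 (6) and 5 to 8 (7). The causes of these changes were not tested. The depth is unknown, so for ACTG2, CNN1 and MYL9 no limit of detection can be given.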
